A study of Mus musculus with 8 samples.

Results

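The genes described here turn cholesterol and fatty acid into stored esters, coat the droplets that hold them and break the esters down again. They are the droplet coat genes Plin2 and Plin3, the ester synthesis genes Soat1, Dgat1 and Dgat2, the cytosolic hydrolase genes Nceh1, Lipe, Pnpla2 and Mgll, and the lysosomal hydrolase gene Lipa. The 10 genes were listed by name, and each was read from the array probe set annotated with its symbol alone. Of these, 9 had 1 such probe set each, among 20566 features tested. Soat1, which encodes the acyltransferase that esterifies cholesterol in macrophages, had no probe set in the annotation and was not analysed here.

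Macrophages were collected from the peritoneal cavity of C57BL/6J mice, 5 days after thioglycollate, an irritant broth that draws monocytes into the cavity. Both groups were then cultured in serum-containing medium. One group of 4 arrays came from cells with no added lipoprotein (unloaded), and the other group of 4 from cells given acetylated low-density lipoprotein (acLDL), a modified lipoprotein taken up by scavenger receptors. Exposure lasted 3 days at 20 µg/mL according to the protocols of the samples, but 2 days at 50 µg/mL according to the text on the series, so dose and time are not settled. The labels give neither genotype beyond the strain nor age, and do not say which mice supplied which culture, so p-values measure the spread between these cultures.

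In a macrophage, lipoprotein cholesteryl ester is first cut in the lysosome by the acid lipase. The freed cholesterol moves to the endoplasmic reticulum, where part of it is esterified again and stored in cytosolic droplets beside triglyceride. Neutral hydrolases release cholesterol from the droplets for export, and triglyceride is taken apart in steps, from triacylglycerol through diacylglycerol to monoacylglycerol. Foam cells, the lipid-filled macrophages of atherosclerotic lesions, are known for holding many such droplets.

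Values are log2 expression values, on which a difference of 1 is a doubling. All 7 measured macrophage markers lay above 6.12, the 95th percentile of 1027 olfactory receptor genes, which served as a measure of background. All 9 measured genes of the set lay above it too. Sterol-responsive genes moved with acLDL. Abca1, the cholesterol exporter, was higher by 1.93 ± 0.06 (log2, SE) and Hmgcs1, of cholesterol synthesis, was lower, with a difference of -1.63 ± 0.07 (log2, SE). The second principal component held 17.8% of the variance and set unloaded arrays 1 and 4 apart from unloaded arrays 2 and 3. On it acLDL array 3 (-0.31) lay near unloaded arrays 2 and 3 (-0.36 and -0.53), away from the other acLDL arrays (0.02 to 0.15). Differences are therefore also given with each of these unloaded pairs alone as controls, for each of the 9 genes. The same is given for further pathway genes whose call was lost against 1 or both pairs. The pairs were chosen by their likeness on these same arrays. Spread within a pair is therefore understated, and adjusted p-values against it may be too small. Both comparisons share the same 4 acLDL arrays, so they are not independent.

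The comparison asked whether loading altered the genes that store and release esters. Mgll, the monoacylglycerol lipase gene, rose 1.42-fold, Lipa fell 1.20-fold and Plin3 fell 1.14-fold. The other 6 measured genes did not pass, and their log2 differences lay between -0.11 and 0.12. These 3 of 9 calls (1 higher, 2 lower) stand beside 23.8% of all 20566 features called by limma (adjusted p below 0.05), of which 12.9% were higher and 10.9% lower. Among the 12050 features above the olfactory 95th percentile the share was 34.1%, so the count of calls in the set was near the background. The median log2 difference was -0.04 over the 9 genes and -0.0049 over all features. The median absolute log2 difference was 0.112 over the 9 genes and 0.113 over all features. Changes past the threshold and of at least 1.5-fold numbered 0 of 9, against 2.11% of all features.

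**Figure D1:**
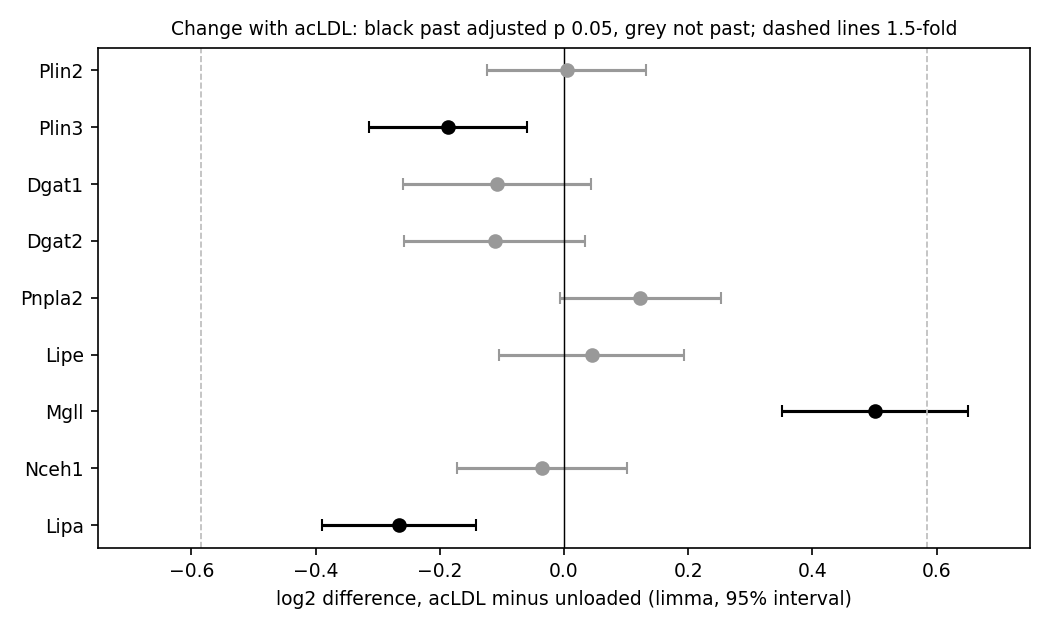
Points are log2 differences, acLDL minus unloaded, for the 9 measured genes, and bars are 95% intervals from the limma fit of 4 against 4 arrays. Mgll lies to the right at 0.50, Lipa at -0.27 and Plin3 at -0.19 lie to the left in black, and the other 6 intervals, in grey, include 0.

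Plin2 encodes perilipin 2, the main droplet coat protein of macrophages, which shields the droplet surface from lipases. Its log2 values were 12.36, 12.31, 12.25 and 12.40 in unloaded arrays 1 to 4 and 12.32, 12.38, 12.31 and 12.33 in acLDL arrays 1 to 4. The acLDL arrays all lay inside the range of the unloaded arrays. Means were 12.33 ± 0.06 and 12.34 ± 0.03 (SD, n = 4), a difference of 0.0043 ± 0.06 (log2, SE; limma adjusted p = 0.969). Against unloaded arrays 1 and 4 alone the difference was -0.05, and against arrays 2 and 3 alone 0.06 (adjusted p = 0.650 and 0.571). The 95% interval ran from -0.12 to 0.13, which in acLDL over unloaded is a ratio of 0.918 to 1.10.

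Plin3 encodes perilipin 3, a coat protein that is also found free in the cytosol and binds to small new droplets. On the log2 scale it read 10.42, 10.36, 10.31 and 10.45 in unloaded arrays and 10.16, 10.22, 10.20 and 10.20 in acLDL arrays. All acLDL arrays lay below all unloaded arrays, with a gap of 0.0838 between the groups. The difference was -0.19 ± 0.06 (log2, SE; limma adjusted p = 0.0347). The call was lost after median centring of the arrays (adjusted p = 0.0657) and on leaving out any 1 of 7 arrays (0.0545 to 0.0954), and among the 8 single omissions it held only without unloaded array 3 (0.0260). With unloaded arrays 2 and 3 alone as controls the difference was -0.14 (adjusted p = 0.149), and with arrays 1 and 4 alone it was -0.24 (0.0218). Plin2 and Plin3 have different probe sets, and the difference between their changes was not tested.

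Dgat1 and Dgat2 encode the diacylglycerol acyltransferases, unrelated enzymes that each make triglyceride. Dgat1 read 8.06, 7.97, 7.86 and 8.09 (log2) in unloaded arrays and 7.97, 7.90, 7.77 and 7.90 in acLDL arrays. The groups overlapped, and the difference was -0.11 ± 0.07 (log2, SE; 95% interval -0.26 to 0.04; limma adjusted p = 0.302). Dgat2 read 6.53, 6.66, 6.58 and 6.59 in unloaded arrays and 6.44, 6.34, 6.57 and 6.57 in acLDL arrays. Its groups overlapped too, with acLDL arrays 3 and 4 inside the unloaded range and arrays 1 and 2 below it. The difference was -0.11 ± 0.07 (log2, SE; 95% interval -0.26 to 0.03; limma adjusted p = 0.266). Falls of either gene by more than 0.26 on the log2 scale lie outside these intervals. Against unloaded arrays 1 and 4 alone Dgat1 differed by -0.19 and Dgat2 by -0.08, and against arrays 2 and 3 alone by -0.03 and -0.14 (log2; adjusted p 0.0931 to 0.808).

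**Figure D2:**
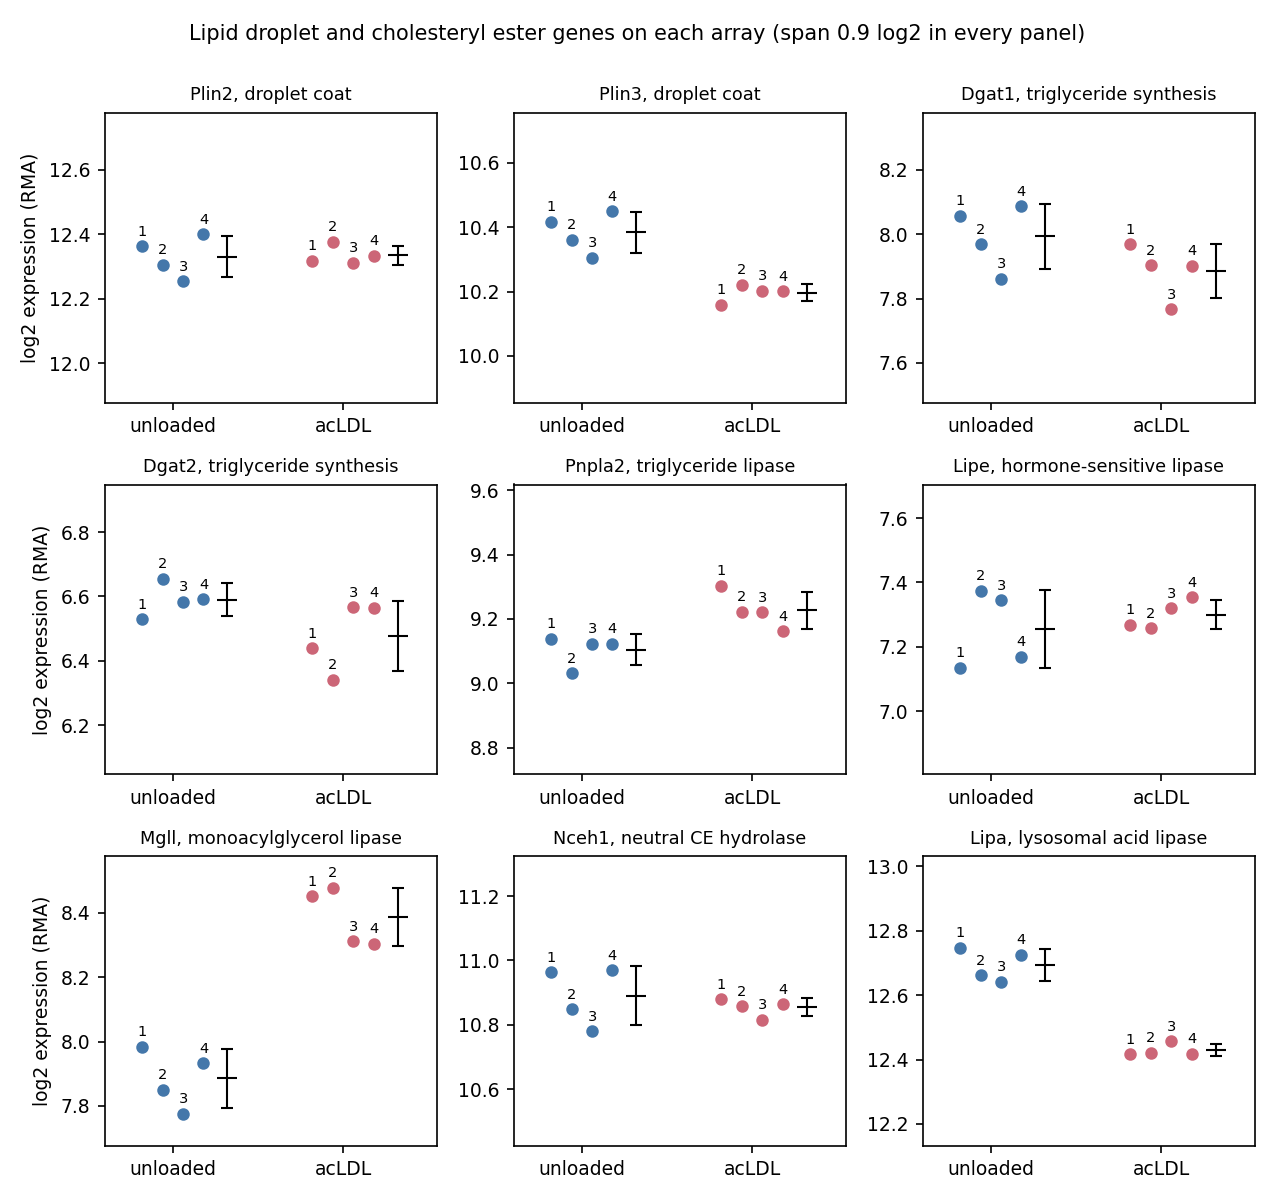
Each panel plots the log2 expression of 1 gene on the 4 unloaded (blue) and 4 acLDL (red) arrays, with the replicate number above each point and the mean ± SD as a bar beside it. Mgll, Lipa, Plin3 and Pnpla2 show groups that do not overlap, and in most panels unloaded arrays 1 and 4 lie above unloaded arrays 2 and 3. Every panel spans 0.9 log2 units around its own level.

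Pnpla2 encodes adipose triglyceride lipase, which makes the first cut in triglyceride. Levels were 9.14, 9.03, 9.12 and 9.12 (log2) in unloaded arrays and 9.30, 9.22, 9.22 and 9.16 in acLDL arrays. All acLDL arrays lay above all unloaded arrays, by a gap of 0.0220, yet the difference of 0.12 ± 0.06 (log2, SE; 95% interval -0.0067 to 0.25) did not pass (limma adjusted p = 0.165). It was 0.10 against unloaded arrays 1 and 4 alone and 0.15 against arrays 2 and 3 alone (adjusted p = 0.348 and 0.147). Groups did not overlap in 4 of the 9 genes (Plin3, Pnpla2, Mgll and Lipa), against 25.9% of all features and 37.0% of those above the olfactory 95th percentile.

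Lipe encodes hormone-sensitive lipase, which acts on diacylglycerol and on cholesteryl ester. It stood at 7.14, 7.37, 7.34 and 7.17 (log2) in unloaded arrays and 7.27, 7.26, 7.32 and 7.35 in acLDL arrays. All acLDL arrays lay between the low unloaded arrays 1 and 4 and the high unloaded array 2. The difference was 0.04 ± 0.07 (log2, SE; 95% interval -0.11 to 0.19; limma adjusted p = 0.698). It turned from 0.15 against unloaded arrays 1 and 4 to -0.06 against unloaded arrays 2 and 3, and neither passed (adjusted p = 0.134 and 0.550).

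Mgll encodes the lipase that splits monoacylglycerol, the last step of triglyceride breakdown and also the step that removes the endocannabinoid 2-arachidonoylglycerol. Its log2 values were 7.98, 7.85, 7.78 and 7.93 in unloaded arrays and 8.45, 8.48, 8.31 and 8.30 in acLDL arrays. The lowest acLDL array lay 0.319 above the highest unloaded array. Means were 7.89 ± 0.09 and 8.39 ± 0.09 (SD, n = 4), a difference of 0.50 ± 0.07 (log2, SE; limma adjusted p = 0.000179). Of all features, 3.53% had a larger absolute difference. Against unloaded arrays 1 and 4 alone the difference was 0.43, and against arrays 2 and 3 alone 0.57, and both passed (adjusted p = 0.00255 and 0.000491). The probe set is annotated with all 4 curated RefSeq transcripts of Mgll, so the value does not separate them.

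Nceh1 encodes neutral cholesteryl ester hydrolase 1, an enzyme that frees cholesterol from stored ester in macrophages. The arrays gave 10.96, 10.85, 10.78 and 10.97 (log2) in unloaded arrays and 10.88, 10.86, 10.82 and 10.86 in acLDL arrays. The acLDL arrays lay within the unloaded range. The difference was -0.04 ± 0.06 (log2, SE; 95% interval -0.17 to 0.10; limma adjusted p = 0.738). It was -0.11 against unloaded arrays 1 and 4 alone and 0.04 against arrays 2 and 3 alone (adjusted p = 0.241 and 0.688).

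Lipa encodes lysosomal acid lipase, which cuts the cholesteryl ester and triglyceride of ingested lipoproteins. Its log2 values were 12.75, 12.66, 12.64 and 12.73 in unloaded arrays and 12.42, 12.42, 12.46 and 12.42 in acLDL arrays. The highest acLDL array lay 0.185 below the lowest unloaded array. Means were 12.69 ± 0.05 and 12.43 ± 0.02 (SD, n = 4), a difference of -0.27 ± 0.06 (log2, SE; 95% interval -0.39 to -0.14; limma adjusted p = 0.00437). A larger absolute difference was seen in 16.9% of all features. The fall passed against unloaded arrays 1 and 4 alone (-0.31, adjusted p = 0.00569) and against arrays 2 and 3 alone (-0.22, 0.0265).

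The bases before the starts of the 3 called genes are shown because these are the genes whose levels differed. They come from RefSeq on build GRCm38.p6, each the 250 bases before an annotated start, 5′ to 3′ on the strand of the gene. Capitals mark matches, on either strand, to CACGTG (the E-box bound by TFEB and related factors), AGGTCA (the half-site of many nuclear receptors), GGGCGG (the GC box bound by Sp1) or CCAAT (the box bound by NF-Y).
Mgll (chr6:88724162-88724411, plus strand): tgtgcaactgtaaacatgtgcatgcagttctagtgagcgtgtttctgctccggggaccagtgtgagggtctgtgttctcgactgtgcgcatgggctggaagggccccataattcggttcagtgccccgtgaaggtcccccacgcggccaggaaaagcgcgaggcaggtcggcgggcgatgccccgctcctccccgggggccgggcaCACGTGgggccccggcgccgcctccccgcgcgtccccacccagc
Lipa (chr19:34527475-34527724, minus strand): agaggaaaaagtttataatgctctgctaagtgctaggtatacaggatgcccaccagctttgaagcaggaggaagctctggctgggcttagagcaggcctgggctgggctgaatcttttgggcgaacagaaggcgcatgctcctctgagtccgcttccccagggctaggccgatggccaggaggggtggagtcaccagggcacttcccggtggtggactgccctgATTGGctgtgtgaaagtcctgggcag
Plin3 (chr17:56290512-56290761, minus strand): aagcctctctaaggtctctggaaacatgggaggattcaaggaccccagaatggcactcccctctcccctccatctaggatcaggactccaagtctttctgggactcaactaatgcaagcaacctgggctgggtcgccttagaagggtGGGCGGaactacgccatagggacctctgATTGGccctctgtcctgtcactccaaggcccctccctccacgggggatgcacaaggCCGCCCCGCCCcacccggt

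The Mgll window printed, before the first of its starts, held 1 CACGTG, and the window before its other start (chr6:88724454-88724703) held none, with 1 GC box. The Lipa window held 1 CCAAT box, on the opposite strand, and none of the other 3 motifs. The Plin3 window held 3 GC boxes, 2 of them on the opposite strand and overlapping by 1 base, and 1 CCAAT box. RefSeq windows were at hand for 8 of the 10 genes, 10 windows in all, and Dgat1 and Dgat2 had none. CACGTG was in 3 of the 10 windows (1 of 2 for Mgll, 1 of 2 for Lipe, and that of Nceh1) and in 6.02% of all 32851 windows. GGGCGG was in 4 of 10 and in 32.7% of all, CCAAT in 5 of 10 and in 33.8%, and AGGTCA in 1 of 10, that of Plin2, and in 14.0%. These matches describe the letters in the windows.

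Values also varied between cultures of the unloaded group. In 7 of the 9 genes unloaded arrays 1 and 4 both lay above arrays 2 and 3, in Lipe they lay below, and in Dgat2 the order was mixed. Over all features arrays 1 and 4 lay above in 28.8% and below in 27.2%, and among features above the olfactory 95th percentile they lay above in 42.8%. For Plin2 the mean of arrays 1 and 4 exceeded that of arrays 2 and 3 by 0.10 on the log2 scale, against 0.0043 between the treatment groups. For Nceh1 the same values were 0.15 and -0.04. For Mgll they were 0.15 and 0.50, and for Lipa 0.0848 and -0.27.

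**Figure D3:**
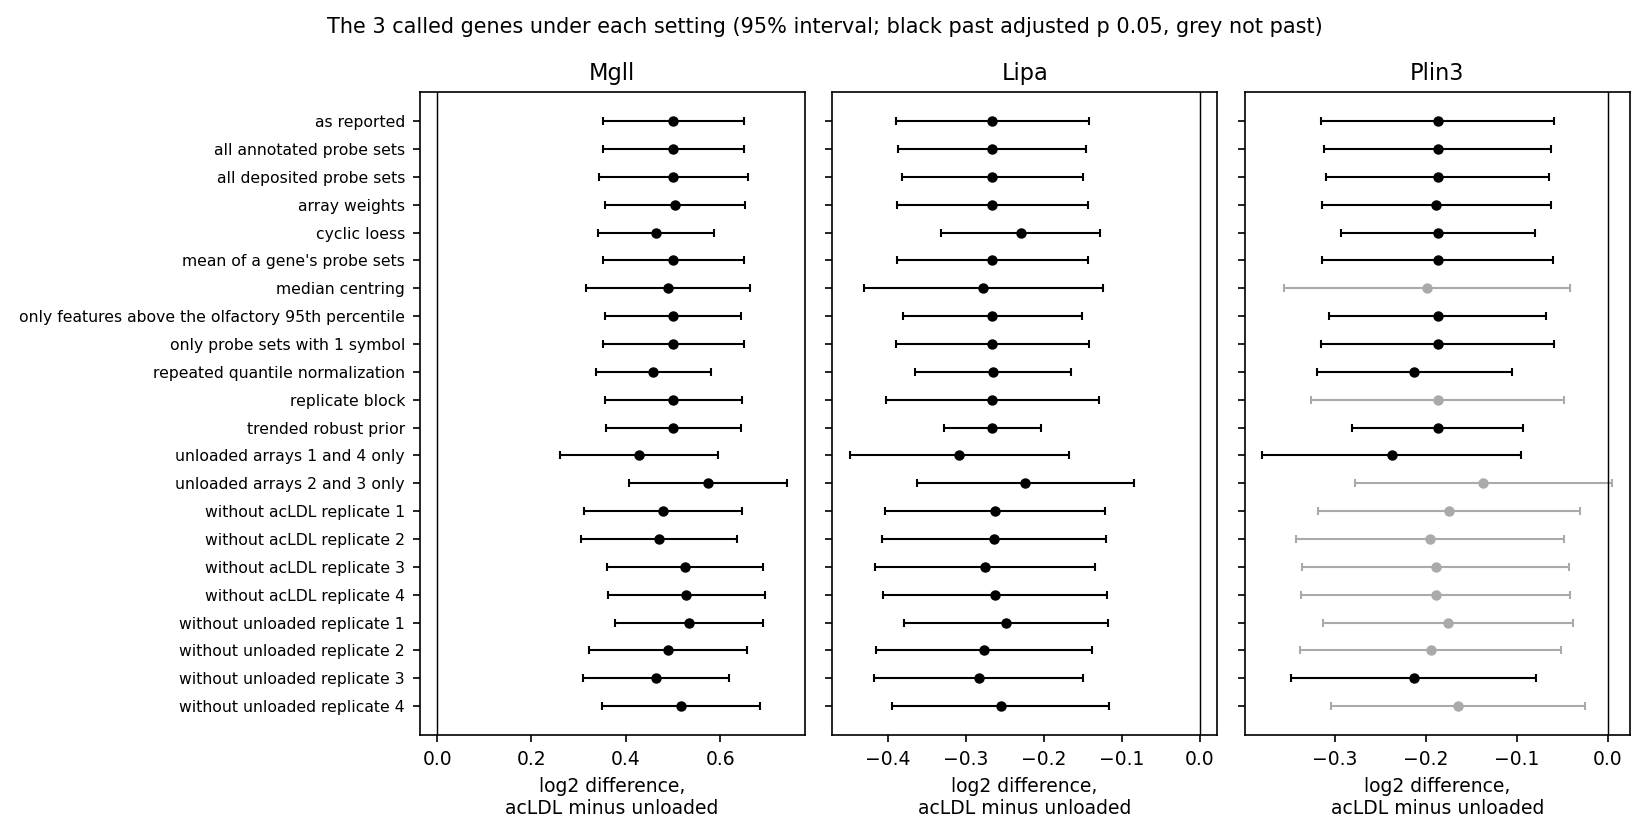
Points are log2 differences, acLDL minus unloaded, of Mgll, Lipa and Plin3 as reported and under 21 alternatives, with 95% intervals, each panel on its own scale. All points of Mgll (0.43 to 0.57) and Lipa (-0.31 to -0.22) are black, past the threshold, while 10 of the 21 alternatives for Plin3 are grey.

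Genes beside these in the same pathways were read from 3 lists. Of 59 listed genes 56 were measured, and 15 passed (6 higher, 9 lower), or 26.8%, near the 23.8% of all features. The median log2 difference was -0.01. Soat2, Acsl1 and Lipc had no probe set in the annotation and were not analysed here. Groups did not overlap in 17 of the 56, the 15 called ones among them, against 25.9% of all features. Among features above the olfactory 95th percentile, where 43 of the 56 lay, 34.1% were called and 37.0% did not overlap. Of the 15 calls 10 also passed against each pair of unloaded arrays alone, and Rab18, Ldah, Acsl4, Lpin2 and Pnpla6 did not. Adjusted p-values against a pair may be too small, as stated above. Over all features, calls numbered 4886 against arrays 1 and 4 alone and 4818 against arrays 2 and 3 alone. They numbered 4892 with all 8 arrays and 3791 to 4835 with 1 array left out. Lcat and Ddhd2, not called with all arrays, passed against unloaded arrays 1 and 4 alone. Ces3a and Scarb2, also not called with all arrays, passed against arrays 2 and 3 alone. Over 21 alternatives Scarb2 passed in 8. Agpat1, whose groups did not overlap, passed in 5 of 21 but not with all arrays (limma adjusted p = 0.0542). Of the 56, 13 had mean levels below the olfactory 95th percentile, where changes may be understated.

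Among 20 genes of droplet coat, biogenesis and regulation, 2 rose, 3 fell and 15 did not pass, with a median of -0.0026. Bscl2, encoding seipin, which shapes nascent droplets at the endoplasmic reticulum, rose from 7.78 ± 0.13 to 8.25 ± 0.04 (log2, SD, n = 4), by 0.47. Aup1, a droplet surface protein that recruits a ubiquitin-conjugating enzyme, rose by 0.27. Pcyt1a, the rate-limiting enzyme gene of phosphatidylcholine synthesis, which supplies the droplet monolayer, fell from 10.63 ± 0.07 to 10.22 ± 0.02 (log2, SD, n = 4). Rab18, a droplet-associated GTPase, fell by 0.28 and Ldah, a droplet-associated hydrolase, by 0.26 on the log2 scale.

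The Rab18 call was lost without any 1 of 6 arrays (unloaded 1 or 4, or any acLDL array; adjusted p 0.0514 to 0.0855) and with all deposited probe sets tested (0.0558). Rab18 differed by -0.44 against unloaded arrays 1 and 4 alone (adjusted p = 0.000940) and by -0.12 against arrays 2 and 3 alone (0.217). The Ldah call was lost without any 1 of 4 arrays (unloaded 1 or 4, acLDL 1 or 3; 0.0530 to 0.0990) and with all deposited probe sets tested (0.0592). Ldah differed by -0.35 against unloaded arrays 1 and 4 alone (adjusted p = 0.0148) and by -0.17 against arrays 2 and 3 alone (0.186). The other perilipin genes did not pass. Plin1, Plin4 and Plin5 differed by 0.04, 0.11 and -0.09 (log2; limma adjusted p = 0.735, 0.507 and 0.550). Their signs turned over the 21 alternatives, from -0.021 to 0.095, -0.0069 to 0.219 and -0.231 to 0.043, and none passed in any. With all arrays, Plin1, Plin4, Plin5 and the other genes that did not pass in the 3 lists had log2 differences from -0.18 to 0.24.

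Among 17 measured genes of other synthesis steps and acyl-CoA supply, 2 rose, 3 fell and 12 did not pass, with a median of 0.05. The probe set of Acsl3, a long-chain acyl-CoA synthetase of droplets, is shared with Utp14b, so its value belongs to both. It read 8.11, 7.68, 7.67 and 7.99 (log2) in unloaded arrays and 6.90, 6.95, 6.92 and 7.03 in acLDL arrays, a 1.88-fold fall. Lpin1, a phosphatidate phosphatase that makes diacylglycerol, fell 1.58-fold, from 8.81 ± 0.11 to 8.15 ± 0.06 (log2, SD, n = 4). Its paralogue Lpin2 rose by 0.21 ± 0.07 (log2, SE; limma adjusted p = 0.0475), a call that was lost in 13 of 21 alternatives. Among them were all single omissions but that of acLDL array 3 (0.0564 to 0.146), repeated quantile normalization (0.0576), cyclic loess (0.0532), median centring (0.0995) and all deposited probe sets (0.0701). Lpin2 differed by 0.17 against unloaded arrays 1 and 4 alone (adjusted p = 0.184) and by 0.25 against arrays 2 and 3 alone (0.0571).

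Agpat3, an acyltransferase of the lysophosphatidic acid family, rose 1.66-fold, from 7.52 ± 0.07 to 8.25 ± 0.08 (log2, SD, n = 4). Acsl4, an acyl-CoA synthetase that prefers arachidonic acid, fell by 0.20 ± 0.06 (log2, SE; limma adjusted p = 0.0359). The Acsl4 call was lost without any 1 of 6 arrays (unloaded 1 or 4, or any acLDL array; 0.0552 to 0.0914) and after median centring (0.0633). Acsl4 differed by -0.28 against unloaded arrays 1 and 4 alone (adjusted p = 0.0125) and by -0.12 against arrays 2 and 3 alone (0.193).

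Among 19 measured genes of other hydrolases and lysosomal cholesterol exit, 2 rose, 3 fell and 14 did not pass, with a median of -0.09. The 3 that fell belong to the patatin-like family of Pnpla2. Pnpla8, a calcium-independent phospholipase, fell 1.63-fold, from 8.72 ± 0.15 to 8.02 ± 0.03 (log2, SD, n = 4). Pnpla7 and Pnpla6, which act on lysophospholipids, fell by 0.46 and 0.22 (log2). The Pnpla6 call was lost against unloaded arrays 2 and 3 alone (-0.20, adjusted p = 0.0530) and held against arrays 1 and 4 alone (-0.24, 0.0221). Pnpla3 differed by -0.11 (limma adjusted p = 0.278).

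Abhd12, which hydrolyses lysophosphatidylserine and also monoacylglycerol, rose from 9.71 ± 0.11 to 10.17 ± 0.03 (log2, SD, n = 4), a difference of 0.46 beside the 0.50 of Mgll. Abhd6, another monoacylglycerol hydrolase, differed by -0.05 ± 0.07 (log2, SE; limma adjusted p = 0.668). Lpl, the secreted lipase that cuts lipoprotein triglyceride, rose by 0.33. Npc1 and Npc2, which carry freed cholesterol out of the lysosome after the acid lipase has acted, differed by -0.13 and -0.14 (log2; limma adjusted p = 0.129 and 0.148) and did not pass. For Npc1 all acLDL arrays lay below all unloaded arrays, by a gap of 0.0375. Each passed in 1 of 21 alternatives, limma with a trended robust prior (adjusted p = 0.0197 and 0.0168).

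**Figure D4:**
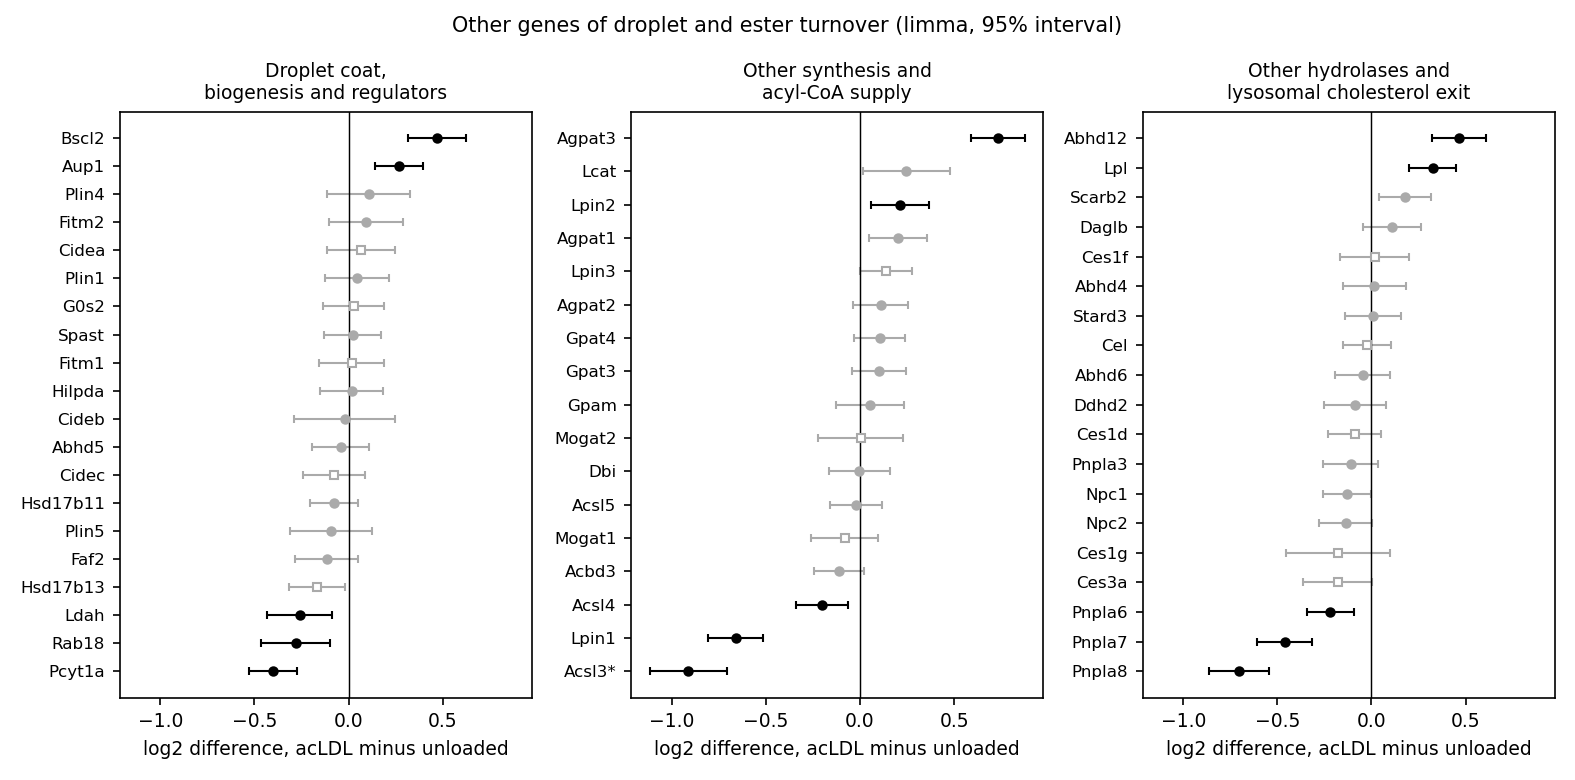
Points are log2 differences, acLDL minus unloaded, of 56 further genes in 3 lists, with 95% intervals from limma (4 against 4 arrays). Black marks the 15 genes past the threshold and grey the other 41, open squares mark genes with a mean level below the olfactory 95th percentile, and the asterisk marks Acsl3, whose probe set is shared with Utp14b. Agpat3 lies furthest to the right at 0.73 and Acsl3 furthest to the left at -0.91.

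Arrays measure RNA of the whole culture, so fewer cells of a type and less RNA per cell cannot be told apart. Of 7 fibroblast and mesothelial markers 0 rose and 2 fell, Col1a2 by 0.37 and Dcn by 0.26 on the log2 scale. The Dcn groups overlapped. Unloaded arrays 1 and 4 exceeded arrays 2 and 3 by 0.21 for Col1a2 and 0.20 for Dcn. The other 5 did not pass: Col1a1 (0.02), Col3a1 (-0.11), Msln (0.02), Upk3b (-0.0009) and Krt19 (0.13). The median log2 difference of the list was -0.0009. The log2 of the list's summed level ran from 11.88 to 12.15 in unloaded and from 11.73 to 11.89 in acLDL arrays. Of 6 measured adipocyte markers 0 rose and 1 fell, Retn by 0.23, and the log2 of the summed level ran from 8.35 to 8.56 in unloaded and from 8.35 to 8.55 in acLDL arrays. Of the 6, 3 had mean levels above the olfactory 95th percentile (Plin4 at 6.63, Plin1 at 6.21 and Retn at 6.14) and 3 lay below it. Among the latter Adipoq, which defines adipocytes, had means of 4.04 in unloaded and 4.22 in acLDL arrays (log2), below the median of 4.44 of the olfactory receptor genes. Of 21 measured markers of T cells, B cells, neutrophils, mast cells and eosinophils 0 rose and 3 fell (Ly6g, Cma1 and Siglecf). Mean levels of 17 of the 21 lay below the olfactory 95th percentile, Ly6g (4.62) and Cma1 (5.65) among them, while Siglecf (7.67) lay above it. The other eosinophil markers, Epx, Ccr3 and Prg2, also lay below it. They differed by 0.15, 0.15 and -0.02 (log2) and did not pass. No marker was listed at 0, and the part of other cells in the falls of Lipa and Plin3 was not tested. Of 7 macrophage markers 4 rose and 0 fell. Adgre1, Itgam, Mertk and Fcgr1 rose by 0.59, 0.63, 0.33 and 0.71 (log2). Csf1r, Lyz2 and Cd68 differed by -0.0018, 0.06 and -0.09 and did not pass, though all acLDL arrays lay below all unloaded arrays for Cd68. The log2 of the list's summed level ran from 14.25 to 14.35 in unloaded and from 14.37 to 14.42 in acLDL arrays. The sum weighs Cd68 and Lyz2 most, with mean levels of 12.89 and 12.87. Called shares were 57.1% of macrophage, 28.6% of fibroblast and mesothelial and 16.7% of adipocyte markers. They stand beside 23.8% of all features and 34.1% of those above the olfactory 95th percentile. The 3 called of the 21 markers of T cells to eosinophils were a smaller share than that of all features.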

How the data were processed

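Total RNA of 8 macrophage cultures was measured on Affymetrix arrays, as the labels' protocols state. The authors deposited log2 values after RMA, a background correction, normalization and probe summary, per the submitters' processing notes. Its version and settings, like the genome build, were not given in the sources used here. This method compresses differences of dim genes, and matching the distributions of arrays hides a change shared by all genes.

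Of 35557 deposited probe sets 23410 were in the platform annotation, 21789 with 1 symbol and 1621 with several. Symbols were checked by Entrez identifier against RefSeq (21698 found, 0 changed). Each gene was read from its brightest probe set with 1 symbol, or failing that from a shared one, giving 20566 features (628 shared). Descriptions of the samples gave their groups and replicate numbers. Differences, acLDL minus unloaded, were tested two-sided in limma 3.58.1 (R 4.3.3; lmFit, then eBayes; no block) with Benjamini-Hochberg adjustment over 20566 features and a threshold of 0.05. No test was made over a list. The fit was tested on simulated arrays.

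The members, the lists and the pairs of unloaded arrays were chosen with earlier results of these data known. All members were named, as were the genes of the 3 pathway lists past the threshold. Of 5 measured sterol-responsive genes, all called, only Abca1 and Hmgcs1 were named. Plin1, Plin4, Plin5, Lcat, Agpat1, Pnpla3, Ces3a, Ddhd2, Abhd6, Npc1, Npc2 and Scarb2 were named after their values were seen. So were the cell type markers that are named. Deviations of equal replicate numbers correlated at 0.11, -0.16, 0.30 and 0.14, so the numbers were not taken as pairs. Alternatives were a replicate block, other probe set choices, a filter on dim features, 3 normalizations, another prior, array weights, a 1.5-fold minimum and leaving out arrays. The number of arrays limits precision, and the median standard error was 0.074. Plots were made in Python 3.11.15 (matplotlib 3.10.9).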

Additional observations from a re-analysis of the deposited data

Results flagged for a closer look

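In 8 of 130 groups of 4 arrays, over the 65 measured genes of the set and the 3 pathway lists, 1 array stood far from the other 3 by Dixon's test. Chance flags about 1 in 20 groups. Lipa read 12.46 in acLDL array 3 against 12.42 in the others, a gap of 0.0359 that is small beside the fall of 0.27 (log2). Pnpla2 read 9.03 in unloaded array 2 against 9.12 to 9.14 in the others. In acLDL arrays, Cidea was low in array 2 (4.60, others 4.89 to 4.93), Ldah low in array 3 (8.55, others 8.78 to 8.80) and Scarb2 low in array 3 (10.07, others 10.19 to 10.21). Fitm2 was high in acLDL array 3 (7.16, others 6.86 to 6.90), and Abhd5 (9.54, others 9.49) and Acbd3 (9.68, others 9.64 to 9.65) were high in acLDL array 1.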

How the results depend on the processing

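Over 21 alternatives each, the differences of the 9 genes gave 189 values, of which 170 kept their direction and side of the threshold, 10 lost a call, 9 turned in sign and 0 gained a call. Mgll (0.43 to 0.57) and Lipa (-0.31 to -0.22) passed in all 21 of these alternatives, which do not include the 1.5-fold minimum. Plin3 lost its call with a replicate block (-0.19, adjusted p = 0.0511), after median centring (-0.20, 0.0657), against unloaded arrays 2 and 3 only (-0.14, 0.149) and without any 1 of 7 arrays. Over all 8 single omissions its difference ran from -0.21, without unloaded array 3, where the call held, to -0.16. The sign turned only in genes that did not pass in either setting. Plin2 went to -0.0071 after median centring, -0.0568 after repeated quantile normalization and -0.0466 against unloaded arrays 1 and 4 only, and ran from -0.0211 to 0.0273 over single omissions. Lipe went to -0.0073 after repeated quantile normalization and to -0.0594 against unloaded arrays 2 and 3 only, and Nceh1 to 0.0406 against the latter. The cause was not tested. Requiring 1.5-fold left 433 features in all, 0 of 9 genes of the set and 4 of 56 further pathway genes. Testing all 35557 deposited probe sets called 7603, with more features tested. The replicate block gave 5109 calls in place of 4892 and, among the 9 genes, changed only the Plin3 call.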
